A study of Mus musculus with 6 samples.

Results

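The genes described here are 32 genes of the endoplasmic reticulum (ER): its chaperones, its disulfide isomerases, its 3 stress sensors with the transcription factor Xbp1, the machinery that returns misfolded proteins to the cytosol for degradation (ER-associated degradation, ERAD), and parts of the channel through which new proteins enter. A probe set belonged to a gene if that gene was its single annotated symbol, and where a gene had several, its brightest by mean of the 6 arrays stood for it. All 32 genes were found, with 77 probe sets, among 18193 genes that had a probe set of their own. They were compared between keratinocytes with a knockout (KO) of the lipid hydroperoxide reductase Gpx4 and keratinocytes of their control littermates.

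The KO group was 3 pools of primary keratinocytes from newborn mice in which keratin 14 cre, active in basal keratinocytes and other cells with that promoter on, had removed Gpx4. The control group was 3 pools from littermates, labelled only as control, and whether these carried cre or floxed alleles was not stated. Both groups had a C57BL6/FVB background, both were cultured in medium with 100 nM sodium selenite, and 1 KO and 1 control pool came from each of litters A, B and C. Each pool was hybridised to 1 single-colour array, so precision is set by 3 arrays a group. The pools are described as biological replicates, and how many mice each held was not stated.

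Secretory and membrane proteins fold in the ER with the help of BiP, the Hsp70 chaperone encoded by Hspa5, and of its co-chaperones, lectin chaperones and disulfide isomerases. When unfolded proteins accumulate, the sensors IRE1 (Ern1), ATF6 (Atf6) and PERK (Eif2ak3) start the unfolded protein response. IRE1 splices Xbp1 mRNA, ATF6 is cleaved to a transcription factor, and both factors raise chaperone and ERAD genes, while PERK slows translation and favours ATF4. Keratinocytes use these arms during differentiation, when they make and export large amounts of lipid and protein. The probe sets measure mRNA, and neither Xbp1 splicing nor the activity of a sensor.

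The ER stress element is the promoter sequence through which ATF6 acts, with CCAAT and CCACG separated by 9 bases. It was searched on both strands in RefSeq promoter windows of GRCm38.p6, which reach from 250 bases before to 50 bases after a start site. Of the 32 genes 28 had an entry, and 9 of these (32.1%) held the element, against 0.119% of all 32851 windows. Among 27025 genes with such a window, 37 held it, these 9 included. The sequences of these 9 genes are shown because the element is the site known for ER stress responses, and most of the genes with an entry did not hold it. Each runs 5′ to 3′ on the strand that reads CCAAT first, with 10 bases on either side and both parts of the element in capitals. A match is a description of letters and does not show that the site is used.
Hspa5, chr2:34772015-34772053, plus strand: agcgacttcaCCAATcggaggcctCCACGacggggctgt
Hsp90b1, chr10:86705628-86705666, minus strand: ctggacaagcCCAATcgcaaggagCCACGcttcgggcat
Hsp90b1, chr10:86705523-86705561, plus strand: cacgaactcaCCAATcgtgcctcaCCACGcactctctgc
Calr, chr8:84847065-84847103, plus strand: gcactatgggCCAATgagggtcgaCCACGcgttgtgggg
Canx, chr11:50325790-50325828, minus strand: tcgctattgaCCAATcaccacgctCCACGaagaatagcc
Pdia6, chr12:17266481-17266519, plus strand: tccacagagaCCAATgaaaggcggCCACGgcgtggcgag
Dnajc3, chr14:118937817-118937855, plus strand: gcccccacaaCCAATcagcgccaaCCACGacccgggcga
Creld2, chr15:88819510-88819548, minus strand: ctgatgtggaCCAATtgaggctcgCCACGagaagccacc
Syvn1, chr19:6046522-6046560, plus strand: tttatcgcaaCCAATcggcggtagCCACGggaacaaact
Derl3, chr10:75893232-75893270, minus strand: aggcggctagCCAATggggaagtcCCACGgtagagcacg

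The shorter element II, ATTGG and CCACG separated by 1 base, was in the windows of Herpud1 and Dnajb11, and in 0.0365% of all windows. The Herpud1 site is shown because Herpud1 had the highest log2 change of the ERAD genes, again with the element in capitals.
Herpud1, chr8:94386367-94386397, plus strand: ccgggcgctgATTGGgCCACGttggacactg
The motif TGACGTGG, a site described for XBP1 and ATF6, was in the windows of Txndc5 and Txndc11 and in 0.676% of all windows. The letters CCACG alone, which are part of both ER stress elements, stood in 24 of the 28 genes' windows and in 32.8% of all windows.

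The deposited intensities differed in overall level between arrays, so they were quantile-normalised, and the levels given are these normalised intensities. Gpx4, the targeted gene, was lower on all 3 KO arrays on the probe set with the higher mean, with 212, 259.7 and 216.1 in the KO pools (litters A, B, C in this order, as for all values by array) and 496.9, 550.9 and 535.7 in control pools (log2 change -1.15 ± 0.0912, SE, limma adjusted p = 0.0206). This was a fold of 0.45, so Gpx4 signal remained in KO pools. The other Gpx4 probe set had -1.40 ± 0.21 (limma adjusted p = 0.063). Changes are KO minus control on log2(intensity + 16), estimated in limma with litter as a block and given ± SE or with a 95% interval. This scale understates the change of dim genes. No p-value is given for the 32 genes as a list. Of the 24 genes with several probe sets, 10 had one whose change had the opposite sign to the chosen one. Of all 77 probe sets of the 32 genes 50 lay above 0, as did 50.5% of all 45037 probe sets on the array.

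None of the 32 ER genes passed an adjusted p of 0.05, against 0.42% of all 45037 probe sets (189). By limma the lowest adjusted p was 0.184, for Manf, and over all 77 probe sets of these genes it was 0.11. At an unadjusted p under 0.05 there were 5 genes with higher values in KO pools (15.6%, against 8.66% of all genes) and 0 with lower values (against 9.45%). They were Manf, Ssr3, Herpud1, Derl1 and Hspa5, and their log2 changes lay between 0.22 and 0.34. In either direction the count of 5 became 11 when litter C was left out and 1 when either of the others was, and it was 0 with the intensities as deposited and 3 without the intensity trend in limma. Of all probe sets 2773 passed the adjusted threshold when litter C was left out, 3 when litter A was and 0 when litter B was.

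The changes were small. Log2 changes of the 32 genes ran from -0.21 for Sel1l to 0.36 for Ern1, a fold of 0.863 to 1.28. For 31 of the 32 the 95% interval, which is not adjusted for the number of genes, lay within a 2-fold change either way, as it did for 94.5% of all genes, and for 24 it lay within 0.5 on the log2 scale. The exception was Hyou1. The bound is thus not particular to ER genes.

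**Figure D1:**
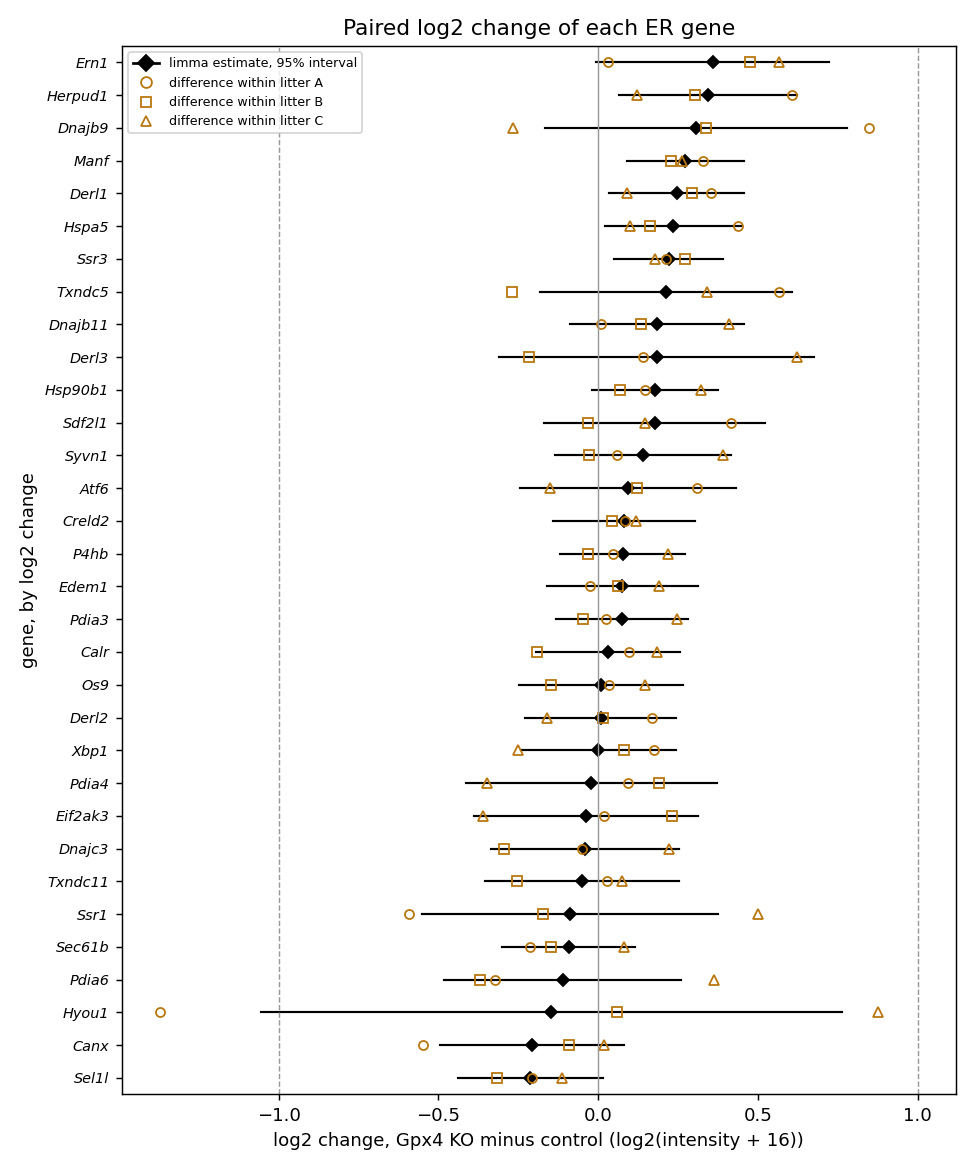
Log2 change of each of the 32 ER genes (x axis, KO minus control on log2(intensity + 16)), with genes down the y axis by size of change, the limma estimate as a diamond with its 95% interval and the 3 within-litter differences as open symbols. Only the interval of Hyou1 reaches the dashed line at a log2 change of -1. The litters lie on both sides of 0 in 22 of the 32 genes, and they are furthest apart in Hyou1, Dnajb9 and Ssr1.

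In the BiP system and its co-chaperones 6 of 8 genes lay above 0 (75.0%, against 50.1% of all genes), and none passed. The median log2 change was 0.18, from -0.15 to 0.31. With the intensities as deposited 3 of 8 lay above 0, and with the mean of a gene's probe sets all 8 did (median 0.19). The count was 7 without litter A (median 0.11), 7 without litter B (0.24) and 6 without litter C (0.13). Hspa5, BiP itself, had intensities of 3384, 2999 and 3328 in KO pools, against 2492, 2677 and 3103 in control pools. Each KO pool lay above its littermate control, but the KO pool of litter B lay below the control of litter C, so the groups overlapped. The log2 change was 0.23 ± 0.0883 (limma adjusted p = 0.301), a fold of 1.18 with a 95% interval from 1.015 to 1.36. Another probe set of Hspa5, with a lower mean, gave 1916, 2005 and 2100 in KO pools and 1480, 1523 and 1818 in control pools, without overlap (log2 change 0.32, adjusted p = 0.141). The dimmest of its 3 probe sets had overlapping groups and a lower KO pool in litter B (log2 change 0.18, adjusted p = 0.688).

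Manf, a small ER protein that binds BiP and is secreted under ER stress, had KO pools above control pools in every litter by similar amounts. Its intensities were 930.9, 932.2 and 964.1 in KO pools and 738, 793.4 and 802.1 in control pools. The lowest KO pool was above the highest control pool, and the litters differed by 0.33, 0.23 and 0.26. The log2 change was 0.27 ± 0.076, a fold of 1.21 with an interval from 1.06 to 1.37.

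Dnajb9, the BiP co-chaperone ERdj4 that is an XBP1 target and restrains IRE1, differed between litters. It had 703, 615.8 and 491.8 in KO pools and 383.6, 483.9 and 594.4 in control pools. The KO pool was above its control in litters A and B (log2 differences 0.85 and 0.34) and below it in litter C (-0.27). Its log2 change of 0.31 ± 0.196 did not pass (adjusted p = 0.535). Without litter C it was 0.59 and passed (limma adjusted p = 0.0428), the 1 call among the 32 genes under any processing tried. In that fit 6.16% of all probe sets passed.

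Dnajb11, the co-chaperone ERdj3, had 211.1, 244.2 and 292.3 in KO pools and 209.8, 220.9 and 215.9 in control pools, with a log2 change of 0.18 ± 0.113. Only the KO pool of litter A lay within the control range. Sdf2l1, a partner of ERdj3, had 0.18 ± 0.144, and Creld2, an ER protein induced by ER stress, had 0.08 ± 0.0921 with higher values in KO pools of all 3 litters. Dnajc3, the co-chaperone p58IPK that also inhibits PERK, had -0.04 ± 0.122. Its 5 probe sets ran from -0.14 to 0.26, so no direction is given for it.

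Hyou1, an Hsp110-type chaperone that releases nucleotide from BiP, gave unlike values on its probe sets. The probe set with the highest mean had 203.5, 328.3 and 239.6 in KO pools and 552.3, 314.5 and 123.2 in control pools. Its control values spanned 4.48-fold, and the litter differences were -1.37, 0.06 and 0.88 (log2 change -0.15 ± 0.377). A dimmer probe set of Hyou1 had 50.17, 54.62 and 73.97 in KO pools, against 24.92, 30.87 and 36.61 in control pools, with no overlap (0.69, adjusted p = 0.11). The first probe set carries the array maker's suffix for probes shared by more than one transcript. So do the chosen probe sets of Derl1, Syvn1, Canx and Xbp1. Which of the Hyou1 probe sets follows Hyou1 mRNA was not tested.

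Hsp90b1, the ER member of the Hsp90 family (GRP94), had 1559, 1574 and 1865 in KO pools and 1408, 1502 and 1489 in control pools. All KO pools lay above all control pools, with a log2 change of 0.18 ± 0.0816 (adjusted p = 0.382). Its other probe set had the opposite sign (-0.05). The lectin chaperones, which hold glycoproteins until they are folded, showed no common direction: calreticulin (Calr) had 0.03 ± 0.0933 and calnexin (Canx) had -0.21 ± 0.119. Other probe sets of Canx reached 0.19.

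The disulfide isomerases and thioredoxin-domain proteins form and rearrange disulfide bonds, and 3 of the 6 lay above 0 (median 0.03), or 1 with the intensities as deposited. With litter B left out 5 of the 6 lay above 0 (median 0.09), and with litter C left out the median was -0.002. P4hb, the classical protein disulfide isomerase, averaged 1552 ± 191.4 in KO pools and 1467 ± 132.6 in control pools (SD, n = 3 each). Pdia3, the isomerase that works with the lectin chaperones, averaged 1555 ± 162.4 in KO pools and 1472 ± 66.5 in control pools. Their log2 changes of 0.08 and 0.07 were smaller than the differences between litters. Pdia4 had -0.02 ± 0.163, Pdia6 -0.11 ± 0.154, Txndc11 -0.05 ± 0.126 and Txndc5 0.21 ± 0.164, and none of the 6 had the same sign in all 3 litters.

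**Figure D2:**
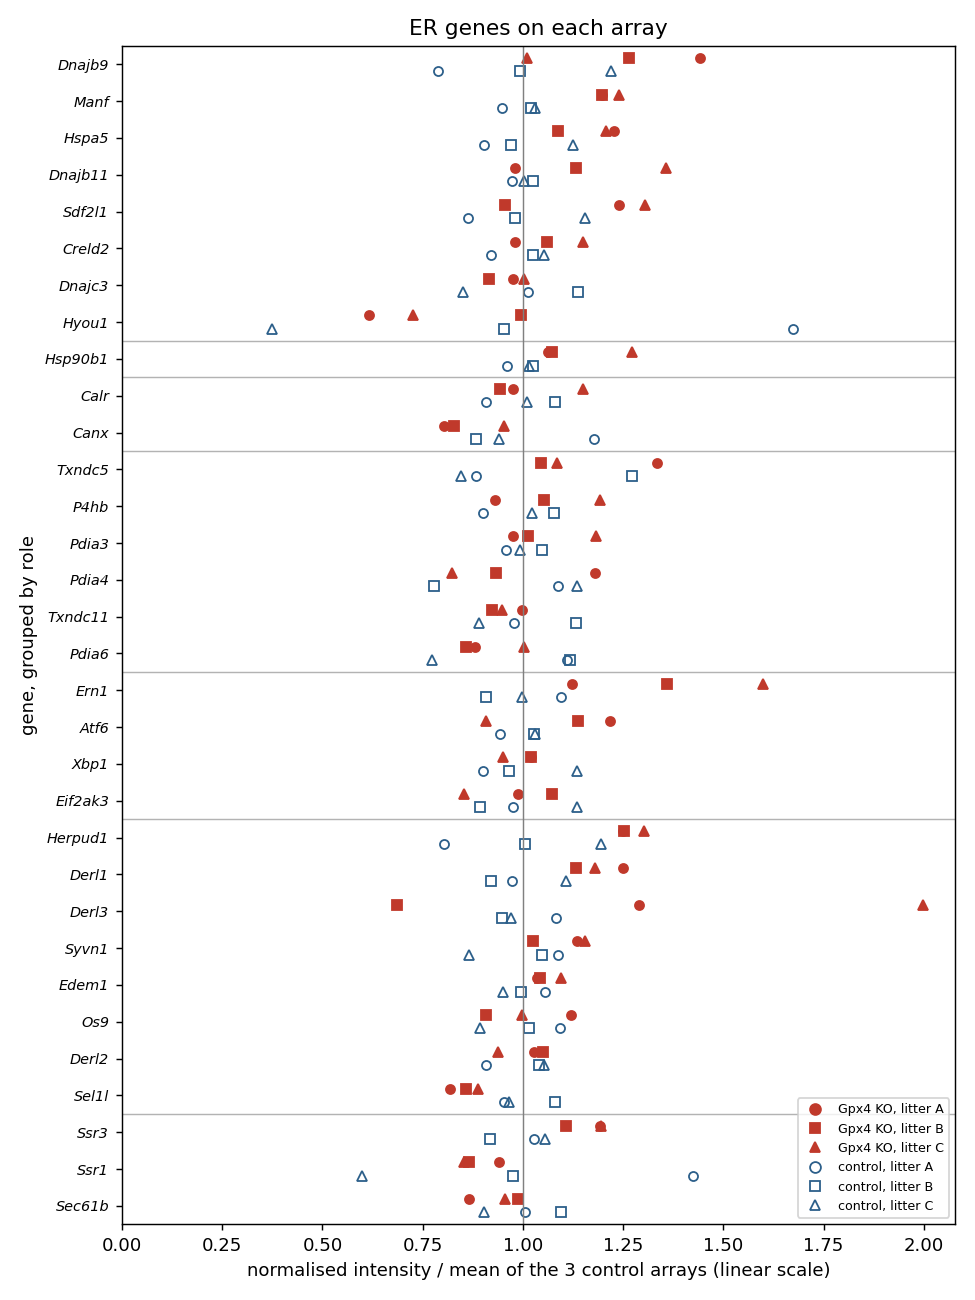
Normalised intensity on each array divided by the mean of the 3 control arrays (x axis, linear) for the 32 ER genes grouped by role (y axis), with KO pools as filled symbols above control pools as open symbols and the litter given by shape. All 3 KO pools lie above all 3 control pools in Manf, Hsp90b1, Ern1, Herpud1, Derl1 and Ssr3, below them in Sel1l, and the groups overlap in the other 25 genes.

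Of the sensors, only Ern1 had KO and control pools that did not overlap. Ern1, which encodes the kinase and endonuclease IRE1, had 72.05, 87.18 and 102.5 in KO pools and 70.2, 58.23 and 63.97 in control pools. The lowest KO pool exceeded the highest control pool by little, and litter A differed by 0.03 where litters B and C differed by 0.47 and 0.57. The log2 change was 0.36 ± 0.152 (adjusted p = 0.35), a fold of 1.28 with an interval from 0.995 to 1.65. All 5 probe sets of Ern1 lay above 0, between 0.09 and 0.37.

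Xbp1, whose mRNA IRE1 splices, had 1575, 1575 and 1468 in KO pools and 1393, 1490 and 1752 in control pools. The log2 change was 0.001 ± 0.101, with an interval from -0.24 to 0.24, and its other probe sets lay between -0.05 and 0.16. Atf6 had 0.09 ± 0.14 and the PERK gene Eif2ak3 had -0.04 ± 0.145. In litter C the KO pool was below its control for Xbp1 (-0.25), Atf6 (-0.15) and Eif2ak3 (-0.36), and above it in litters A and B for all of them.

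Among the ERAD genes 7 of 8 lay above 0 (87.5%, against 50.1% of all genes, median 0.11), but 3 of 8 with the intensities as deposited, and none passed. Without litter C 5 of 8 lay above 0 with a median of 0.02, and without litter A also 5 of 8, with a median of 0.15. Without litter B 7 of 8 did, with a median of 0.16. Herpud1, a membrane protein of the ERAD complex whose gene responds strongly to ER stress, had 377.8, 378.7 and 394.2 in KO pools, against 242.7, 304 and 361.2 in control pools. The 3 KO pools were nearly alike, the control pools were not, and the groups did not overlap. The log2 change was 0.34 ± 0.116 (adjusted p = 0.255), a fold of 1.27 with an interval from 1.045 to 1.54. Its other probe set gave 0.34, with overlapping groups.

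Derl1, a derlin of the channel through which ERAD substrates leave, had 838.1, 759.5 and 791.8 in KO pools and 652.1, 617 and 743.2 in control pools, again without overlap. The log2 change was 0.25 ± 0.0879 (adjusted p = 0.279), and its 4 probe sets lay between 0.04 and 0.41. The related Derl2 had 0.01 ± 0.0981. Derl3, the dimmest of the 32 genes' chosen probe sets, was near the median intensity of an array (22.18, 11.82 and 34.38 in KO pools, and 18.62, 16.3 and 16.7 in control pools), and its log2 change of 0.18 ± 0.205 spans both signs.

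Sel1l, the adaptor that holds the ubiquitin ligase Syvn1 (HRD1) in its complex, was the 1 gene with all KO pools below all control pools. It had 252.8, 264.9 and 274.5 in KO pools and 294.4, 333.9 and 298 in control pools (log2 change -0.21 ± 0.0937, adjusted p = 0.366). Its other 4 probe sets lay between -0.05 and 0.007, so the lower value was not shared by them. Syvn1 itself had 0.14 ± 0.115. The mannosidase-like Edem1 and the lectin Os9, which pass misfolded glycoproteins to this complex, had 0.08 ± 0.098 and 0.01 ± 0.107.

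The translocon genes differed from one another. Ssr3, a subunit of the translocon-associated protein complex, had 1798, 1670 and 1801 in KO pools and 1548, 1382 and 1591 in control pools, without overlap. Its litter differences of 0.21, 0.27 and 0.18 were close to each other, and the log2 change was 0.22 ± 0.0712 (adjusted p = 0.236). The other probe set of Ssr3, with a lower mean, had a smaller change of 0.15 ± 0.0727 (limma adjusted p = 0.415), also without overlap. Ssr1, another subunit of that complex, had 826.3, 760.9 and 751.4 in KO pools but 1254, 858.8 and 526.6 in control pools. Its log2 change of -0.09 ± 0.193 averages a lower KO pool in litter A with a higher one in litter C. Sec61b, a subunit of the channel itself, had -0.09 ± 0.0861.

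Over the 32 genes, 9 had higher KO than control values in all 3 litters (28.1%, against 19.3% of all genes) and 1 had lower values in all 3 (3.12%, against 20.1%), of 18193 genes. All 3 KO pools lay above all 3 control pools for 6 genes (18.8%, against 9.81%) and below them for 1 (3.12%, against 10.8%). The median log2 change was 0.08 (0.117 without litter B), beside 0.00 for all genes. It was 0.07, 0.03 and 0.16 in litters A, B and C, with 24, 17 and 25 of the 32 genes above 0. These were 75.0%, 53.1% and 78.1% of them, against 49.9%, 48.2% and 51.2% of all genes.

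That direction rests on the scaling of the arrays: 22 of the 32 genes lay above 0 after quantile normalisation, 23 when arrays were shifted to equal medians, and 10 with the intensities as deposited. After quantile normalisation this was 68.8%, against 50.1% of all genes. The share of all genes above 0 was not counted under the other scalings. As deposited the median of the 32 was -0.11, beside -0.09 for all genes. With arrays shifted to the same median it was 0.08, beside 0.10 for all genes, so under either scaling the ER genes lay 0.02 below the median of all genes, whereas after quantile normalisation they lay 0.08 above it. As deposited 1 gene had higher and 6 had lower KO values in all 3 litters. With arrays shifted to the same median these counts were 12 and 2, and with the mean of a gene's probe sets 8 and 0. Of single genes, 9 stayed above 0 in the main processing and all 11 alternatives, and 3 stayed below 0 (Canx, Sec61b and Sel1l). The 9 were Hspa5, Manf, Dnajb9, Hsp90b1, Ern1, Herpud1, Derl1, Ssr3 and Txndc5. The same count was not made over all genes. All alternatives reuse the same 6 arrays, and those on the block, the trend and dim probe sets leave the estimate unchanged. Dnajb9 (-0.27, litter C), Txndc5 (-0.27, litter B), Canx (0.02, litter C) and Sec61b (0.08, litter C) each had a litter of the opposite sign.

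**Figure D3:**
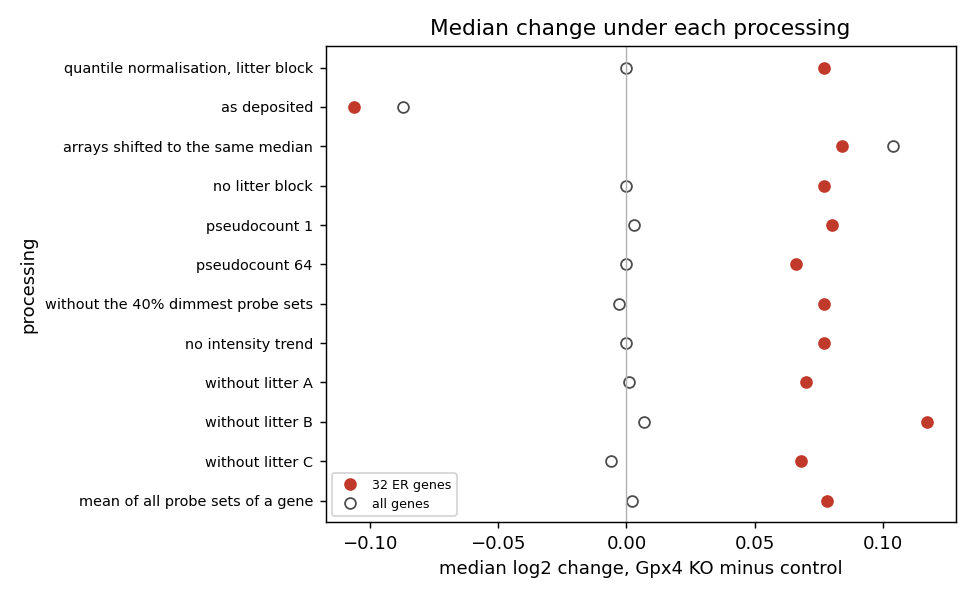
Median log2 change (x axis, KO minus control) of the 32 ER genes as filled points and of all genes as open points under each processing (y axis). The ER genes lie to the right of all genes in 10 rows and 0.02 to the left of them with the intensities as deposited and with arrays shifted to the same median.

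Changes were also set beside the promoter elements. The 9 genes with the element had a median log2 change of 0.08, from -0.21 for Canx to 0.23 for Hspa5, and 6 of them lay above 0. With the 2 genes holding element II the median was 0.14. The 17 genes whose windows held neither had a median of 0.01, from -0.21 to 0.36, and 11 of them lay above 0. These medians are given as a description, without a test.

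**Figure D4:**
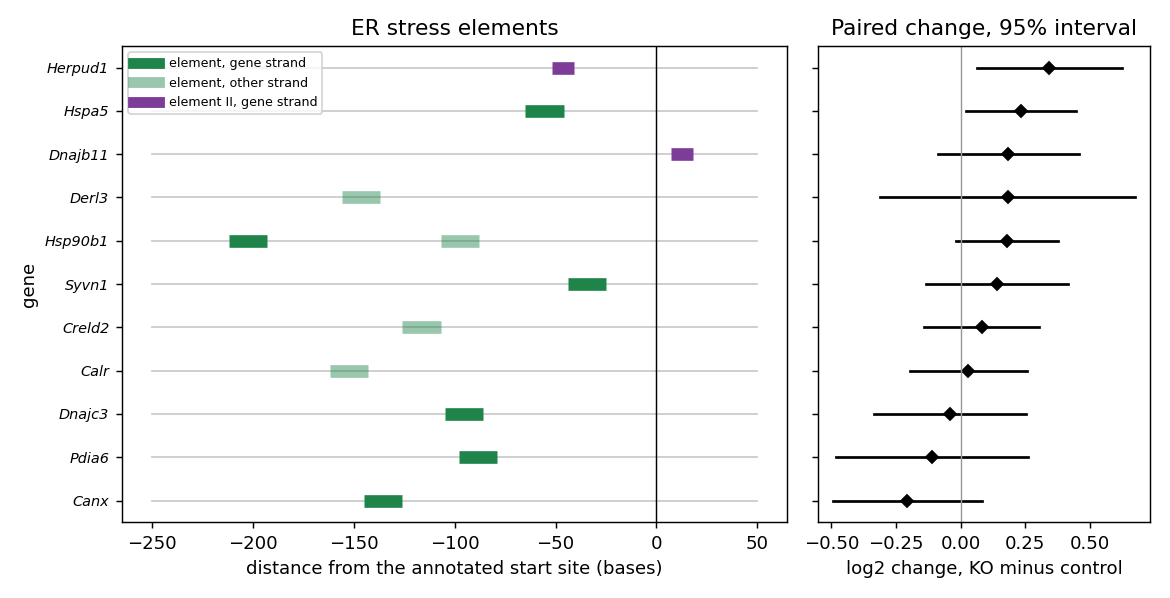
Left, position of ER stress elements in the promoter windows of 11 ER genes (x axis, bases from the annotated start site; genes on the y axis by log2 change), with the colour giving the kind of element and its shade the strand. Right, log2 change of each gene (KO minus control) with its 95% interval; the intervals of Herpud1 and Hspa5 lie above 0 and the other 9 include it.

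Other genes of the pathway were taken as 4 lists that hold none of the 32. Of 103 such genes measured none passed by limma, and their median log2 change was 0.02, with 53 above 0 (51.5%, against 50.1% of all genes). At an unadjusted p under 0.05 10 had higher KO values (9.71%, against 8.66% of all genes). Lower values were seen in 8 (7.77%, against 9.45%), so both pooled shares were near those of all genes. The single lists differed. Shares with higher and lower values were 13.8% and 10.3% for folding and oxidation, and 0% and 12.5% for other ERAD genes. They were 3.57% each for translocation and N-glycosylation, and 22.7% and 4.55% for other sensor arms. In the folding and oxidation list of 29 genes the lowest p-values were those of Rcn1, a calcium-binding ER protein (0.58 ± 0.0857, adjusted p = 0.0609), the oxidase Ero1a that recharges disulfide isomerases (0.74 ± 0.146, adjusted p = 0.0989) and the isomerase Pdia5 (0.59 ± 0.137, adjusted p = 0.136). For each of them all 3 KO pools lay above all 3 control pools. Ero1a had 513, 477.5 and 406.9 in KO pools and 257.7, 239.2 and 324.5 in control pools.

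In the list of other ERAD genes (24 measured, median 0.04) the 3 lowest p-values belonged to genes with lower KO values: the glycanase Ngly1 had -0.35 ± 0.107 and the ubiquitin ligases Rnf5 and Rnf139 had -0.32 ± 0.106 and -0.27 ± 0.101. In the list of translocation and N-glycosylation genes (28 measured, median -0.01) these were the catalytic oligosaccharyltransferase subunit Stt3a (0.23 ± 0.0738), the translocation protein Sec62 (-0.26 ± 0.0848) and the signal recognition particle subunit Srp68 (0.23 ± 0.11). Adjusted p of these 6 genes lay between 0.213 and 0.407.

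The list of other sensor arms (22 measured, median 0.01) held the highest log2 change among the 103 genes. Trib3, a pseudokinase induced by ATF4 and CHOP, had 384.7, 371.8 and 325.6 in KO pools and 144.2, 163.9 and 294.9 in control pools (0.86 ± 0.222, adjusted p = 0.163). The ATF4 target Chac1 had 0.52 ± 0.12 (adjusted p = 0.135). Mbtps2, the protease that completes ATF6 cleavage, had 0.53 ± 0.134 (adjusted p = 0.157). Mbtps2 lies on the X chromosome, and the groups also differed in the sex-linked markers given below. Atf4 itself had 0.16 ± 0.0952, and Ddit3, which encodes CHOP, had 0.02 ± 0.146. Without litter C 10 of the 103 genes passed, in a fit where 6.16% of all probe sets did. They were Ero1a, Rcn1, Trib3, Chac1, Mbtps2, Ube2j1, Ppp1r15a, Atf3, Cnpy2 and Sdf4. In the main processing Cnpy2 (-0.325) and Sdf4 (-0.296) had lower KO values and the others had higher ones.

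**Figure D5:**
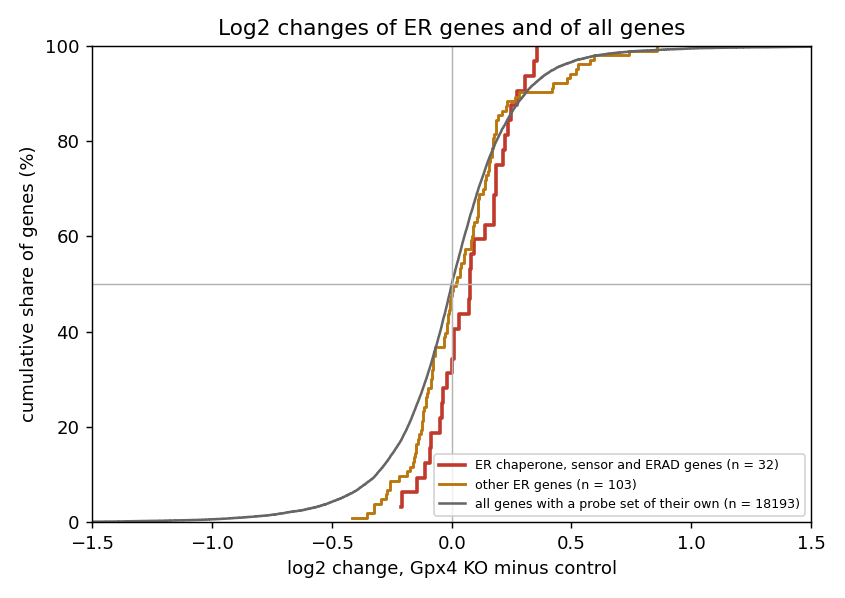
Cumulative share of genes (y axis, percent) by log2 change (x axis, KO minus control) for the 32 ER genes, the 103 other ER genes and all 18193 genes after quantile normalisation. The curve of the 32 genes runs from -0.21 to 0.36 and crosses 50% at 0.08, where that of all genes crosses at 0.00.

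Markers of other cells and of sex differed between the groups. The 8 melanocyte markers, of pigment cells that also rely on the ER for melanosome proteins, summed to 6445 to 7084 in KO pools and 4650 to 4810 in control pools, with Tyrp1 (0.69) and Mlana (1.1) higher at limma adjusted p = 0.038 and 0.0429. The 9 keratinocyte markers summed to 21030 to 21520 in KO pools and 21710 to 23950 in control pools. Of the 9, 5 had lower KO values in all 3 litters (55.6%, against 20.1% of all genes) and 0 had higher values. The differentiation keratin Krt10 passed (-1.42, limma adjusted p = 0.00922). Krt1 (-1.21, adjusted p = 0.0836), Trp63 (-0.43, adjusted p = 0.0816) and Krt15 (-2.49, adjusted p = 0.164) were lower in all 3 litters and did not pass. All 4 measured sex-linked markers passed, with 1 higher and 3 lower in KO pools. The Y-linked Eif2s3y had a log2 change of -3.33 and Xist one of 1.36. None of the 32 ER genes lies on the X or Y chromosome, but Mbtps2 of the other lists lies on the X. Since these markers differed along with genotype, sex and genotype cannot be told apart here, for genes on any chromosome. The part of these and the following marker differences in the values of the ER genes was not tested, and in such cultures fewer cells of a type and less RNA per cell cannot be told apart.

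Of the other marker lists, the sums over 6 immune markers were 72.3 to 106.6 in KO pools and 53.3 to 69.12 in control pools, with 4 of the 6 averaging under 16. The 8 fibroblast markers summed to 816.1 to 1113 in KO pools and 821.7 to 1370 in control pools, but they did not move alike. KO values were higher in all 3 litters for the collagen genes Col1a1 (1.12 ± 0.201, limma adjusted p = 0.0831) and Col1a2 (0.83 ± 0.212, adjusted p = 0.157) and for the receptor Pdgfra (0.71 ± 0.226, adjusted p = 0.229). Fibronectin (Fn1), the marker with the highest intensity in this sum, had lower KO values in all 3 (-0.61 ± 0.0868, adjusted p = 0.0552), and none of the 8 passed. The 4 plasma cell markers summed to 4492 to 5234 in KO pools and 4836 to 5630 in control pools, which was nearly all Sdc1, a gene that keratinocytes also express (means 4751 in KO pools and 5235 in control pools). The 4 endothelial markers summed to 24.37 to 37.27 in KO pools and 23.07 to 34.8 in control pools. All 4 endothelial markers averaged under 16, as did the plasma cell genes Jchain and Mzb1, and no marker was at 0 on any array. The ratio of 3′ to 5′ actin control probe sets, a sign of RNA quality, was 1.22 to 1.26 in KO pools and 1.18 to 1.29 in control pools.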

How the data were processed

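Total RNA was extracted with Trizol and labelled with biotin, per the labels' protocols. The deposited table holds 1 linear intensity for each of 45101 probe sets and 6 arrays; the authors' background correction, probe summary and scaling are not given in the sources used here. The deposited intensities were on unlike levels, with trimmed means from 72.81 to 114.3. The 64 control probe sets were left out, the rest quantile-normalised, and log2(intensity + 16) was tested for all 45037 probe sets in limma 3.58.1 under R 4.3.3 (lmFit, eBayes with an intensity trend, litter as a block, two-sided p, Benjamini-Hochberg, threshold 0.05). Litter pairs the arrays by the labels; the residuals of arrays sharing a litter had a correlation of 0.175 (A), 0.0474 (B) and 0.207 (C). The replicates are pools, and p-values measure only the spread between these arrays.

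Symbols came from GEO's platform annotation, which can be old, and 34945 probe sets had 1 gene. Chromosomes and promoter windows came from RefSeq for GRCm38.p6. Genes named are all 32, the 3 lowest p-values of each other list and the genes of these lists that passed without litter C. A few were named as background after their values were seen (Atf4 and Ddit3). Of the 108 genes of the other lists 5 were not analysed here, and 1 marker each of the keratinocyte and sex-linked lists. The members, lists and scaling were chosen with earlier results of these data known. The steps were tested on simulated arrays. Alternatives were the scaling, block, pseudocount, dim-probe filter, probe-set choice, variance trend and leaving out each litter.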

Additional observations from a re-analysis of the deposited data

How the results depend on the processing

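None of the 32 ER genes passed under 10 of the 11 alternatives, and 1 (Dnajb9) passed without litter C; over the litters left out in turn the count was 0 to 1. Their median log2 change was -0.106 as deposited and lay between 0.066 and 0.117 otherwise. Without the replicate block 0 of the 32 and 135 of all probe sets passed, which changed no call of an ER gene. Of 103 other ER genes, 0 passed in the main processing, 8 with arrays shifted to the same median, 1 with a pseudocount of 1, 3 without the 40% dimmest probe sets, and 0 to 10 with a litter left out. Of all probe sets 189 passed in the main processing, 35 as deposited, 2398 with arrays shifted to the same median, 601 and 59 with pseudocounts of 1 and 64, 1130 without the dimmest, 6 without the intensity trend, 0 (without litter B) to 2773 (without litter C) with a litter left out, and 16 of 18193 genes with the mean of a gene's probe sets. The median log2 change of all probe sets was 0.124 with arrays shifted to the same median, beside 0.002 in the main processing. The count of genes with the same sign in all litters was 10 in the main processing, 7 as deposited, 14 with arrays shifted and 8 with the mean of probe sets. Of 352 single-gene values 338 stayed within 1 SD of the litter differences and 14 moved further, 13 of them as deposited. Many of these values could not have moved further. The settings on the block, the trend and dim probe sets leave the estimate unchanged. Leaving out a litter cannot shift a mean of 3 litter differences by 1 SD of them. For these settings the count that stayed is therefore no measure of stability. Except for the fewer samples or features tested, the causes were not tested.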
